A study of Mus musculus with 6 samples.

Results

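The renin-angiotensin system was examined in kidney endothelial cells (ECs) through 8 genes, Ace, Ren1, Agt, Agtr1a, Agtr1b, Agtr2, Enpep and Atp6ap2. They were taken by gene name from the 55401 genes of the deposited count table, and all 8 were listed. RNA came from CD31+ CD45- cells sorted from kidneys of male mice, 1 library per mouse, with 3 mice in the group RbpjΔEC (RbpjDEC in the labels, Cre +/-; Rbpjf/f) and 3 Cre-negative littermates (CTRL, Cre -/-; Rbpjf/f). Every mouse carried floxed Rbpj alleles, Rbpj being the DNA-binding effector of Notch receptors, and each received 5 doses of 1.5 mg tamoxifen at 8 weeks of age. Kidneys were taken 12 weeks after induction, and the labels give an age of 21 weeks. In RbpjΔEC mice the tamoxifen-inducible Cre is driven by the Cdh5 promoter, which is active in ECs of all vessel types. The presence of Cre and the loss of Rbpj cannot be told apart, since no mouse carried Cre without floxed Rbpj.

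In this system the protease renin, secreted by juxtaglomerular cells at the afferent arteriole, cleaves angiotensinogen to angiotensin I. Angiotensin-converting enzyme (ACE), held on the surface of ECs and of the proximal tubule brush border, converts this to angiotensin II and also breaks down bradykinin. Angiotensin II constricts vessels through the AT1 receptor, while aminopeptidase A trims it to angiotensin III. In the kidney these steps set glomerular pressure and sodium reabsorption.

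Of the 8 genes, Ace was lower in RbpjΔEC at an adjusted p under 0.05, and 0 were higher. The level of Ace in RbpjΔEC was 0.489 times that in CTRL. Ren1 and Atp6ap2 had lower values in each RbpjΔEC library than in any CTRL library and did not pass the test. Enpep, the most abundant of the 8 genes, and Agtr1a overlapped between the groups, and Agt, Agtr1b and Agtr2 were too low to test. Tests used edgeR's quasi-likelihood fit over the 18438 genes that passed a filter on low counts, 5 of the 8 genes among them, with Benjamini-Hochberg adjustment. Over all tested genes 1.13% passed this threshold in either direction, 0.559% lower and 0.575% higher. These were 103 and 106 genes, while scaling by library size alone gave 81 and 159, and scaling to the pan-endothelial markers 56 and 663. Groups that did not overlap were found for 23.0% of tested genes in either direction and for 11.6% with RbpjΔEC lower, against 3 of the 5 tested genes here. The median log2 fold change over all tested genes was 0.01.

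The 250 bases before the RefSeq start (GRCm38.p6) are shown for Ace, Ren1 and Atp6ap2, since these were the genes whose groups did not overlap. Capitals mark TATAA on the gene strand and the GC box GGGCGG on either strand, the latter read as CCGCCC on the other strand. For Ace the window is chr11:105967698-105967947 on the plus strand, for Ren1 chr1:133350424-133350673 on the plus strand and for Atp6ap2 chrX:12587509-12587758 on the plus strand. The GENCODE interval of Ren1 starts at 133350510, before the RefSeq start, so part of the Ren1 window lies inside that interval.
Ace: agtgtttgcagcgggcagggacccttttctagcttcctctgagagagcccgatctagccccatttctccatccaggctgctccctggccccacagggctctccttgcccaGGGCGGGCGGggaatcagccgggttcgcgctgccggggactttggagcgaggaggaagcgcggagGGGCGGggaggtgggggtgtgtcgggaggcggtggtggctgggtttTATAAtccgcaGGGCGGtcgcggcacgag
Ren1: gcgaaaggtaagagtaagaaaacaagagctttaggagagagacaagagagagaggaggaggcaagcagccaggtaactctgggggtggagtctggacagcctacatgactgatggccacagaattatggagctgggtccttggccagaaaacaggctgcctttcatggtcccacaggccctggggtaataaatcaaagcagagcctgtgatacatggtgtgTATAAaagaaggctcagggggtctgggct
Atp6ap2: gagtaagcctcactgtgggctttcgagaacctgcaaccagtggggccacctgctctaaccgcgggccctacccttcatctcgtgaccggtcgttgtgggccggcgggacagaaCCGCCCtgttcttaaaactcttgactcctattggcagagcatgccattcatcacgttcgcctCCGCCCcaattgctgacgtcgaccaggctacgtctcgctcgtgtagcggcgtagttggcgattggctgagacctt
In Ace and Ren1 TATAA began 29 bases before the start, while Atp6ap2 had none. The Ace window held 4 copies of GGGCGG, 2 of which overlap each other, and 67.2% of its bases were G or C. Atp6ap2 held 2 copies on the other strand and Ren1 held 0. The RBPJ core letters TGGGAA, searched on both strands, were in 0 of the 8 windows found for 7 of the genes, and Agtr1a had no entry. Among all 32851 windows of this length, 21.6% held TGGGAA, 16% held TATAA and 32.7% held GGGCGG. Sites outside these 250 bases were not searched, and RBPJ binding was not tested. RefSeq lists a second start for Ace inside the gene, whose window held none of the 3 motifs, and counts per gene do not separate transcripts from the 2 starts.

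Levels are given as CPM, counts divided by the library size in 1e6 reads after TMM scaling. Total counts on genes lay between 39649171 and 47726850 per library, so that 3 counts, taken as the floor, were 0.0633 to 0.0748 CPM. Rbpj itself had 29.2 ± 0.963 against 28.2 ± 1.86 CPM (CTRL against RbpjΔEC, SD, n = 3 each), a count over the whole gene that does not show the floxed part alone. Markers shared by ECs, such as Pecam1, Cdh5 and Kdr, summed over 13 genes to between 23445 and 28481 CPM. The T cell genes Cd3e and Cd3d had 0 counts in all 6 libraries. A pair of libraries stood apart. CTRL 1 had reads on 33764 genes, where the others had reads on 25629 to 26785, and RbpjΔEC 3 had 423.7 CPM of proximal tubule markers against 48.9 to 148 in the others. Results below are therefore also given without these libraries where they differ. In bulk RNA, fewer cells of a type and less RNA per cell cannot be told apart.

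Ace (ENSMUSG00000020681.14) lies on chromosome 11 from 105967945 to 105989964 on the plus strand of GRCm38. Its levels were 42.5, 44.2 and 48.9 CPM in CTRL 1 to 3 and 18.5, 21.3 and 26.6 CPM in RbpjΔEC 1 to 3. The groups lay far apart, with the highest RbpjΔEC library below the lowest CTRL library. Counts behind these levels were 1706, 2093 and 2069 in CTRL and 831, 893 and 1067 in RbpjΔEC. Mean Ace was 45.2 ± 3.34 against 22.1 ± 4.11 CPM (CTRL against RbpjΔEC, SD, n = 3 each). In the fit this was a log2 fold change of -1.03 (standard error, SE, 0.124, 95% interval -1.30 to -0.76, adjusted p = 0.00573, edgeR's quasi-likelihood test, Benjamini-Hochberg). By p-value Ace ranked 14 among the 18438 tested genes.
The fall of Ace was present without either library that stood apart. Without RbpjΔEC 3 its log2 fold change was -1.18 (adjusted p = 0.000254, edgeR) and without CTRL 1 it was -1.08 (adjusted p = 0.0183, edgeR). Ace stayed past the threshold in each of the 6 fits that left out 1 library, with adjusted p between 0.000254 and 0.0428 from edgeR's test.
Reads of the antisense gene Gm11651, which overlaps Ace on the other strand, were rare, with at most 0.0498 CPM in any library and 0 counts in all RbpjΔEC libraries.

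**Figure D1:**
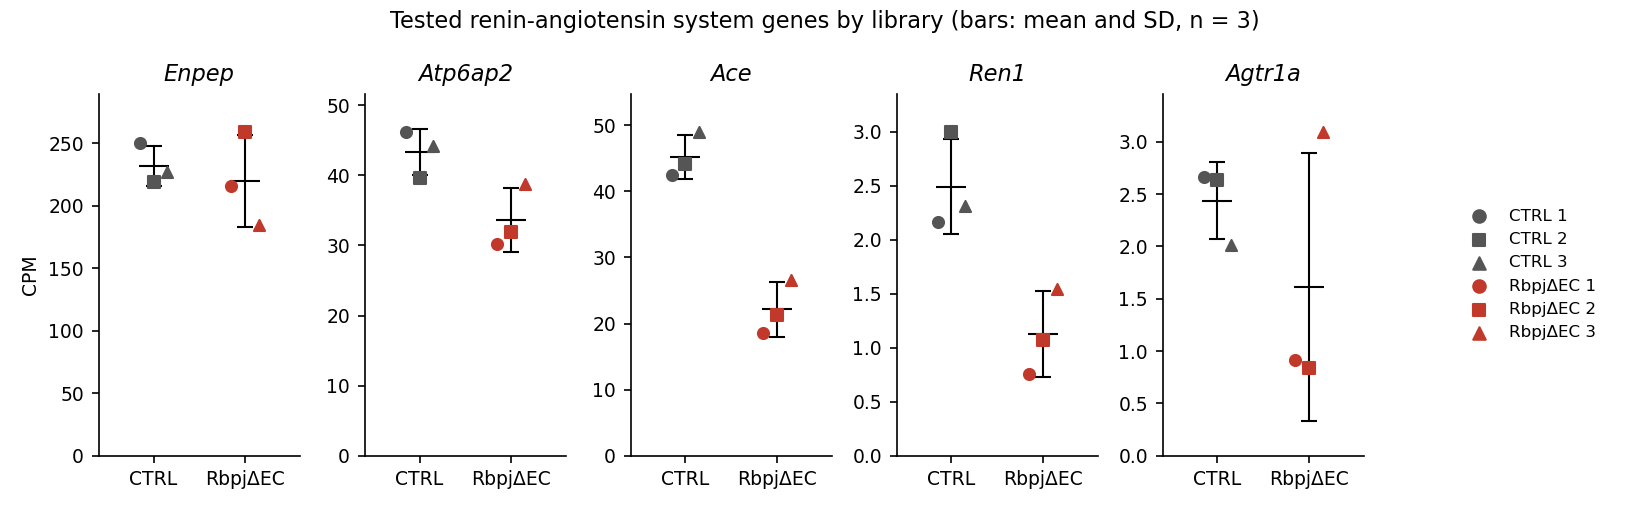
Level in CPM on the vertical axis of the 5 tested renin-angiotensin system genes, each on its own axis from 0, in the 3 CTRL (grey) and 3 RbpjΔEC (red) libraries. Bars give mean and SD. Ace separates most clearly, with 42.5 to 48.9 CPM in CTRL and 18.5 to 26.6 CPM in RbpjΔEC, while Enpep and Agtr1a overlap.

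Ren1 (ENSMUSG00000070645.5, chromosome 1 from 133350510 to 133360325, plus strand) encodes renin. It had 87, 142 and 98 counts in CTRL 1 to 3 and 34, 45 and 62 counts in RbpjΔEC 1 to 3. In CPM this was 2.17, 3.00 and 2.32 in CTRL and 0.758, 1.07 and 1.55 in RbpjΔEC. All RbpjΔEC libraries were below all CTRL libraries, with CTRL 2 the highest and RbpjΔEC 1 the lowest. The log2 fold change of Ren1 was -1.15 (SE 0.316, 95% interval -1.84 to -0.46), close in size to that of Ace, with a wider error at these counts. Its adjusted p (edgeR, Benjamini-Hochberg) was 0.0982 and did not pass. Without RbpjΔEC 3 it passed, at a log2 fold change of -1.45 and an adjusted p of 0.0410 from edgeR. In no other fit that left out 1 library did Ren1 pass, and its adjusted p reached 0.325 without RbpjΔEC 1 (log2 fold change -0.93, edgeR). DESeq2's Wald test on the 6 libraries gave an adjusted p of 0.0221.

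Agt (ENSMUSG00000031980.10, chromosome 8 from 124556534 to 124569706, minus strand) encodes angiotensinogen, which is made mainly in the liver and also in the proximal tubule. It had 2, 5 and 3 counts in CTRL and 4, 1 and 13 counts in RbpjΔEC, 28 in all. Most libraries were within a few counts of the floor. The library with 13 counts, RbpjΔEC 3, was also the library with the highest proximal tubule markers. The part of tubule RNA in this value was not tested.

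Atp6ap2 (ENSMUSG00000031007.2, chromosome X from 12587801 to 12617049, plus strand) encodes the prorenin receptor, which is also an accessory subunit of the vacuolar proton pump and is expressed in most cells. Its levels were 46.1, 39.7 and 44.2 CPM in CTRL 1 to 3 and 30.2, 31.9 and 38.8 CPM in RbpjΔEC 1 to 3. The groups did not overlap, although RbpjΔEC 3 came within 1 CPM of CTRL 2. The log2 fold change of Atp6ap2 was -0.37 (SE 0.104, 95% interval -0.59 to -0.14, adjusted p = 0.105, edgeR). Without RbpjΔEC 3 it was -0.48 and passed (adjusted p = 0.0251, edgeR), and DESeq2's Wald test on all libraries gave an adjusted p of 0.0405. Atp6ap2 passed in no other fit that left out 1 library, and without RbpjΔEC 1 it was at -0.30 (adjusted p = 0.348, edgeR). Scaled to the summed counts of the pan-endothelial markers in place of all genes, the log2 fold change of Atp6ap2 was -0.17 (adjusted p = 0.345, edgeR).

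Enpep (ENSMUSG00000028024.14, chromosome 3 from 129269175 to 129332720, minus strand) encodes aminopeptidase A, a membrane enzyme known in the kidney from the proximal tubule brush border, podocytes and pericytes. Enpep had 249.7, 219 and 227 CPM in CTRL 1 to 3 and 216, 259 and 185 CPM in RbpjΔEC 1 to 3. RbpjΔEC held both the highest and the lowest library. The log2 fold change of Enpep was -0.08 (SE 0.112, 95% interval -0.32 to 0.17, adjusted p = 0.765, edgeR), and it was 0.034 without RbpjΔEC 3. Its sign also turned, to 0.12, when scaled to the pan-endothelial markers.
Enpep was lowest in RbpjΔEC 3, the library with the most proximal tubule RNA. Per 1000 CPM of summed proximal tubule markers Enpep was 5102, 2508 and 1531 CPM in CTRL 1 to 3 and 2194, 2289 and 436 CPM in RbpjΔEC 1 to 3. Over the 6 libraries Enpep spanned 7.88 to 10.6 CPM per 1000 CPM of pan-endothelial markers and 1712 to 2572 CPM per 1000 CPM of mural markers. The mural sum holds Kcnj8 and Abcc9, which had higher means in RbpjΔEC, while the median log2 fold change of the mural list was -1.08. These ratios do not tell the cell source of Enpep, which was not tested.

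The receptors were low in these cells. Agtr1a (ENSMUSG00000049115.15, chromosome 13 from 30336441 to 30382867, plus strand), the main AT1 receptor gene of the mouse, had 107, 125 and 85 counts in CTRL 1 to 3 and 41, 35 and 124 counts in RbpjΔEC 1 to 3. In CPM this was 2.67, 2.64 and 2.01 in CTRL and 0.914, 0.834 and 3.09 in RbpjΔEC. RbpjΔEC 1 and 2 lay below every CTRL library, and RbpjΔEC 3 lay above all of them. The log2 fold change of Agtr1a was -0.60 with a standard error of 0.468 and a 95% interval of -1.65 to 0.45 (adjusted p = 0.546, edgeR). Without RbpjΔEC 3 it was -1.48 and passed (adjusted p = 0.0331, edgeR), while it was -0.32 without RbpjΔEC 1 (adjusted p = 0.842, edgeR) and -0.29 without RbpjΔEC 2 (adjusted p = 0.790, edgeR). Agtr1a is known from mesangial and smooth muscle cells and from the proximal tubule, and the part of tubule RNA in RbpjΔEC 3 in this value was not tested.
Agtr1b (ENSMUSG00000054988.9, chromosome 3 from 20314473 to 20367177, minus strand), the second AT1 receptor gene of the mouse, had 4 counts in CTRL 3, 1 in RbpjΔEC 3 and 0 in the other libraries. Its coding sequence is similar to that of Agtr1a, so that single short reads can be uncertain between them. Agtr2 (ENSMUSG00000068122.10, chromosome X from 21484544 to 21489164, plus strand), the AT2 receptor gene, which is known mainly from fetal tissue, had 1, 2 and 1 counts in CTRL and 0, 0 and 2 counts in RbpjΔEC. No difference was detectable for Agtr1b or Agtr2 at this depth.

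Per kilobase of exon, the order of levels in CTRL was Enpep (49.2 ± 3.42 CPM per kilobase), Atp6ap2 (16.6 ± 1.27), Ace (8.55 ± 0.632), Ren1 (1.51 ± 0.267), Agtr1a (0.875 ± 0.133), Agt (0.0399 ± 0.0149), Agtr1b (0.0147 ± 0.0254) and Agtr2 (0.00910 ± 0.00312), each as mean ± SD of n = 3. Library ranges of neighbours in this order did not overlap from Enpep down to Agt, and those of Agt, Agtr1b and Agtr2 overlapped. In RbpjΔEC the first 6 places were the same. There the ranges of Ren1 (0.679 ± 0.239 CPM per kilobase) and Agtr1a (0.579 ± 0.460 CPM per kilobase) overlapped as well, and Ace was at 4.19 ± 0.777 CPM per kilobase. The enzymes that make and trim angiotensin II stood far above the substrate and the receptors on this scale. Among all tested genes the mean level of Enpep was at percentile 95.9 in CPM, that of Ace at 72 and that of Ren1 at 31.2.

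Around this core, 23 other genes of angiotensin and kinin processing were followed, and 15 passed the filter. By edgeR's test 0 were lower and 0 higher at an adjusted p under 0.05. At an unadjusted p under 0.05, 4 were lower and 0 higher, where 17.5% of all tested genes passed in either direction and 8.62% were lower. DESeq2's Wald test called 1 of the 15, Klk1, which was lower, where it called 5.12% of all tested genes. With edgeR Klk1 was also called without CTRL 2, where 3.99% of tested genes were called. Without RbpjΔEC 3, where 2.88% were called, Klk1 and Anpep were called lower. Anpep, which encodes aminopeptidase N, had a log2 fold change of -0.75 over all 6 libraries (SE 0.632, adjusted p = 0.594, edgeR). The median log2 fold change over the 15 genes was -0.11, with 12 below 0 and 3 above. The broadly expressed peptidases Thop1, Nln, Prep, Prcp, Rnpep, Lnpep and Ctsa, which can act on angiotensins or kinins, had log2 fold changes between -0.19 and 0.02, none of which passed. Lnpep, which encodes the aminopeptidase that binds angiotensin IV, had 320.7 ± 22.8 against 296 ± 14.6 CPM (CTRL against RbpjΔEC, SD, n = 3 each).
The 3 largest negative values belonged to Kng2, Klk1 and Mme. Klk1, the tissue kallikrein that releases kinins and is known from the distal nephron, had 13.2, 6.69 and 8.59 CPM in CTRL 1 to 3 and 3.57, 2.74 and 4.99 CPM in RbpjΔEC 1 to 3. In the fit Klk1 differed by -1.33 on the log2 scale (SE 0.286, adjusted p = 0.0619, edgeR). For Kng2, a kininogen gene, the log2 difference was -1.49 (SE 0.537, adjusted p = 0.245, edgeR). Mme, which encodes neprilysin, had -0.90 (SE 0.384, adjusted p = 0.257, edgeR). In these 3 genes, and in Prep and Ctsa, every RbpjΔEC library was below every CTRL library, which makes 5 of the 15 genes against 11.6% of all tested genes.
Beside them, markers of the loop of Henle, distal tubule and collecting duct (6 genes, Umod, Slc12a1, Slc12a3, Aqp2, Aqp3 and Calb1) were lower together, at 288.8 ± 103 against 106 ± 58.0 CPM (CTRL against RbpjΔEC, SD, n = 3 each). The groups of this sum did not overlap (p = 0.1 in a two-sided exact permutation test, which cannot go lower with 3 libraries a group), and its part in the kallikrein and kininogen values was not tested.
The 3 positive values belonged to Xpnpep2, Cpn1 and Rnpep, none of which passed. Xpnpep2, a bradykinin-degrading aminopeptidase, had a log2 fold change of 1.09 (SE 0.587, adjusted p = 0.362, edgeR). Cpn1, a kinin-degrading carboxypeptidase subunit, had 0.54 (SE 0.668) and Rnpep, aminopeptidase B, had 0.02 (SE 0.0893). Mas1, the receptor of the opposing arm, had 4 counts in RbpjΔEC 3 and 0 in the other libraries.

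**Figure D2:**
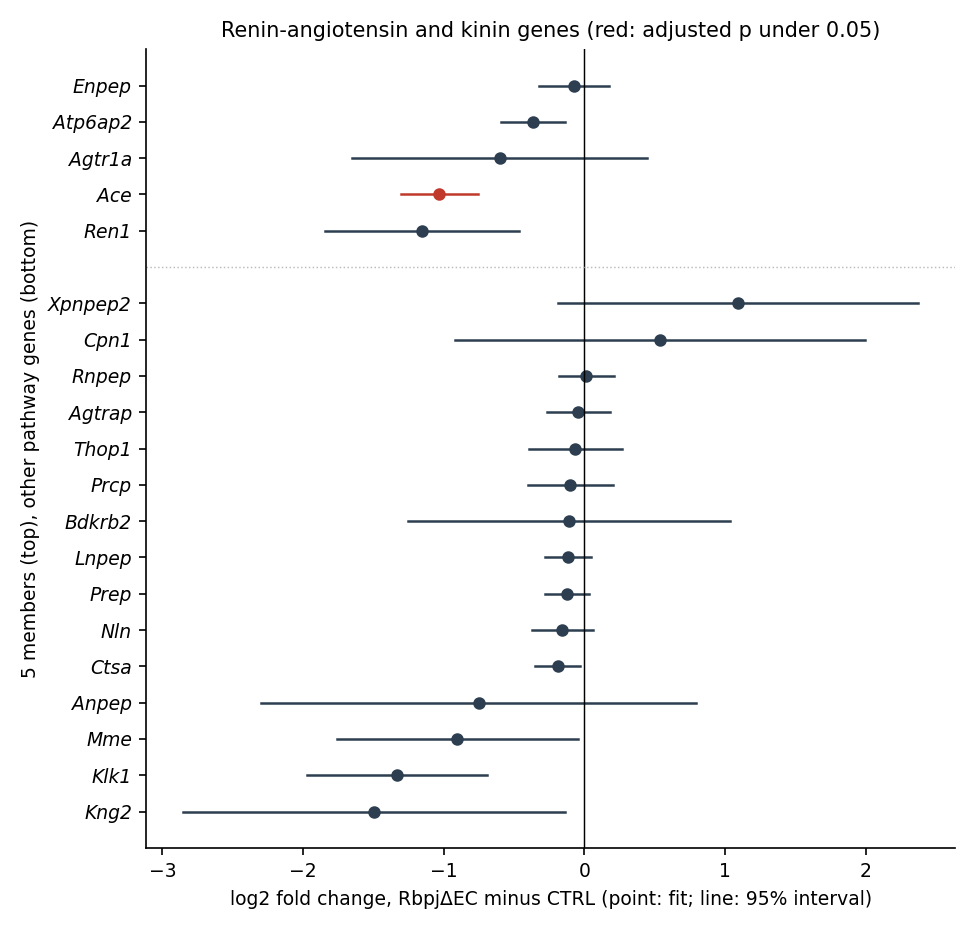
Log2 fold change (RbpjΔEC minus CTRL, horizontal axis) of the 5 tested members above the dotted line and 15 tested angiotensin and kinin genes below it, with points for the fit and lines for the 95% interval. Red marks an adjusted p under 0.05. Ace, at -1.03, is the red point, and intervals are widest for genes with few counts such as Cpn1 and for Kng2 and Anpep.

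Ace was set beside markers of the cell types that the sort could hold. Pan-endothelial markers summed to 27434 ± 1661 against 23932 ± 441 CPM (CTRL against RbpjΔEC, SD, n = 3 each). These sums did not overlap between the groups, with a log2 ratio of -0.20. Per 1000 CPM of these markers Ace was 1.49, 1.73 and 1.73 CPM in CTRL 1 to 3 and 0.770, 0.875 and 1.14 CPM in RbpjΔEC 1 to 3, again without overlap. With counts scaled to the pan-endothelial markers the log2 fold change of Ace was -0.83 (adjusted p = 0.0231, edgeR), while the median of all tested genes moved to 0.20.
Arterial EC markers (12 genes) summed to 2649 ± 90.4 against 2364 ± 170.2 CPM (CTRL against RbpjΔEC, SD, n = 3 each), a log2 ratio of -0.16 that is smaller than that of Ace. The sum is dominated by abundant genes, and the median log2 fold change of its 12 genes was -0.47, with Jag1 (-0.54) and Fbln5 (-0.72) past the threshold. Of the 12 genes 10 were lower and 2 higher, Dll4 (0.22) and Sox17 (0.04), neither of which passed. Dll4 was higher in each RbpjΔEC library than in any CTRL library. Glomerular EC markers (6 genes, among them Ehd3, Plat and Pi16) summed to 2183 ± 279 against 1405 ± 248 CPM (CTRL against RbpjΔEC, SD, n = 3 each). All 6 of these genes were below 0, 2 passed the threshold (Lpl and Pi16), and the median log2 fold change was -0.71. Per 1000 CPM of these markers, Ace was 22.8, 18.7 and 21.1 CPM in CTRL and 15.0, 16.5 and 15.7 CPM in RbpjΔEC. The distance between the groups was smaller on this scale, at a log2 ratio of -0.41, and the groups still did not overlap.
Mural cell markers (12 genes) were also lower, with 3 of 11 tested genes past the threshold, Acta2, Myh11 and Rgs5, and a median log2 fold change of -1.08. Their sum lay between 111 and 146 CPM in CTRL and between 83.9 and 107 CPM in RbpjΔEC, and Kcnj8 and Abcc9 went the other way with values of 0.93 and 1.03 that did not pass. Mesangial markers (6 genes) had sums of 162 to 194 CPM in CTRL and 102 to 145 CPM in RbpjΔEC. Much of this sum was Serpine2 (log2 fold change -0.27), and over the list all 6 genes were below 0 with an unadjusted p under 0.05, 1 was called (Ptn) and the median was -1.31. Stroma markers (6 genes) had 4.62 to 7.08 CPM in CTRL and 1.54 to 2.92 CPM in RbpjΔEC. Mural and mesangial cells lie next to renin-producing cells in the kidney. Per 1000 CPM of mural markers Ren1 was 14.9, 26.2 and 20.9 CPM in CTRL and 9.03, 10.04 and 16.9 CPM in RbpjΔEC, so that the groups overlapped on this scale, at a log2 ratio of -0.79. Kcnj8 and Abcc9 made up 46.6 CPM of the mural sum in RbpjΔEC and 23.6 CPM in CTRL. Without these 2 genes, left out after their values were seen and so without a test, the mural sum averaged 100.1 CPM in CTRL and 47.6 CPM in RbpjΔEC, a log2 ratio of -1.07. Per 1000 CPM of that sum Ren1 was 18.5, 31.9 and 25.9 CPM in CTRL and 16.3, 29.7 and 25.7 CPM in RbpjΔEC, a log2 ratio of -0.09. This ratio depends on leaving out the 2 genes with higher means, and with all 12 mural genes it was -0.79. The 6 juxtaglomerular markers other than Ren1 differed in direction, with 4 lower, 2 higher and 0 called. Among them Akr1b7 had 37, 39 and 23 counts in CTRL and 9, 3 and 26 counts in RbpjΔEC (log2 fold change -1.32), while Rln1 had 7, 15 and 5 counts in CTRL and 31, 22 and 17 counts in RbpjΔEC. Rln1 was the 1 gene of this list whose groups did not overlap. Their sum was 248 ± 32.7 against 248 ± 54.2 CPM (CTRL against RbpjΔEC, SD, n = 3 each), and most of it was Gja1, which ECs express too. The part of mural or mesangial RNA in the Ren1 value was not tested.
Proximal tubule markers (12 genes) were spread from 48.9 to 148 CPM in CTRL and from 98.4 to 423.7 CPM in RbpjΔEC. Within each group the level of Ace rose in the same library order as this sum. The part of tubule RNA in the Ace values was not tested. Podocyte markers (5 genes) had 193 ± 7.81 against 198 ± 18.7 CPM (CTRL against RbpjΔEC, SD, n = 3 each), most of it from Synpo. Macrophage markers (8 genes) had 18.2 to 23.0 CPM in CTRL and 25.5 to 30.6 CPM in RbpjΔEC. This higher sum came from Cd68, which rose by a log2 fold change of 1.27, while 4 of the 5 tested macrophage genes had lower means, Mrc1 past the threshold, and the median log2 fold change of the 5 was -1.25. B and T cell markers (8 genes) stayed at or below 1.10 CPM in sum. Mast cell markers (7 genes), of which Cpa3, Cma1 and Mcpt4 encode proteases that can act on angiotensin I, consisted almost wholly of Kit, and no protease gene among them had more than 4 counts in a library.

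**Figure D3:**
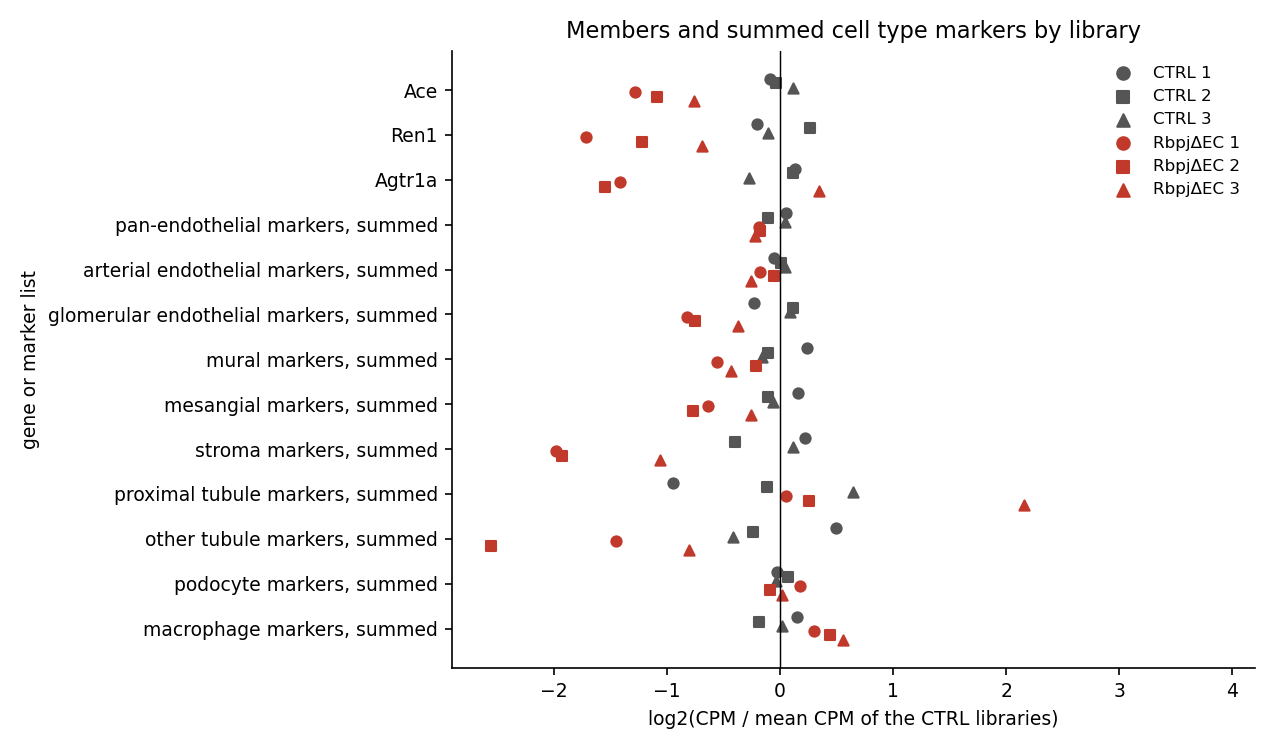
Level of Ace, Ren1 and Agtr1a and summed level of 10 cell type marker lists in each library, as the log2 ratio to the CTRL mean (horizontal axis). Grey points are CTRL and red points RbpjΔEC. Pan-endothelial markers lie slightly to the left in all RbpjΔEC libraries (log2 ratio -0.20), Ace and Ren1 lie further to the left in all RbpjΔEC libraries, and RbpjΔEC 3 stands apart in proximal tubule markers and in Agtr1a.

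The genes whose profile over the 6 libraries was most like that of Ace were sought among 10438 other tested genes with a mean of at least 5 CPM, by the root mean square difference of log2 CPM after each gene was set to its CTRL mean. The nearest was Col18a1, a basement membrane collagen gene, at 0.128. It was followed by Pde3a (0.129), a cyclic nucleotide phosphodiesterase gene, Tgfb2 (0.148), a TGF-beta ligand gene, Slc8a1 (0.160), the sodium-calcium exchanger gene, and Clu (0.171), which encodes clusterin. Ace itself was at -0.09, -0.03 and 0.12 in CTRL 1 to 3 and at -1.28, -1.08 and -0.76 in RbpjΔEC 1 to 3 on this scale. These genes were chosen for this likeness, so their own fold changes (-1.08 to -0.95) are a description.
Of the 6 tested genes next to Ace on the chromosome, 3 on each side, 0 passed the threshold. Cyb561 on its left had a log2 fold change of -0.29 (adjusted p = 0.493, edgeR) and Kcnh6 on its right had 0.20 (adjusted p = 0.816, edgeR). Dcaf7, the next gene on the right, had -0.23 (adjusted p = 0.122, edgeR), with each RbpjΔEC library below each CTRL library. Gm11653, Gm9910 and Taco1os, the other 3 of the 6 neighbours, had values of -0.10, 0.07 and 0.93 with few counts, and none passed.

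**Figure D4:**
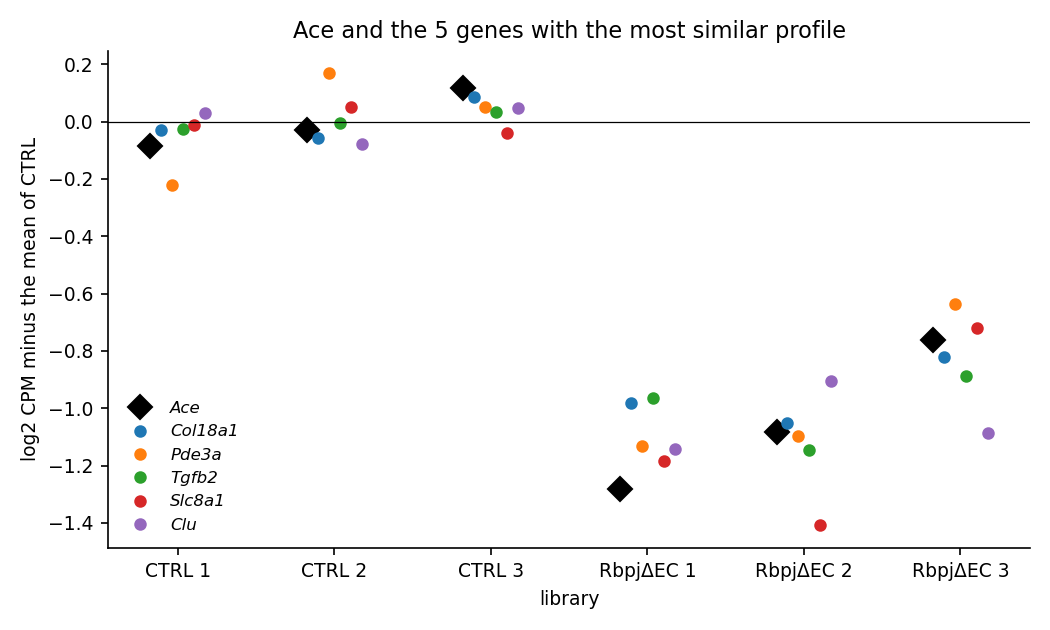
Log2 CPM minus the CTRL mean (vertical axis) of Ace (black diamonds) and of the 5 genes with the most similar profile, by library. All 6 genes lie near 0 in CTRL, and in RbpjΔEC Ace lies between -1.28 and -0.76, with RbpjΔEC 3 the closest to CTRL.

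Leaving out RbpjΔEC 3, the library with the most proximal tubule RNA, moved the count of renin-angiotensin system genes called from 1 to 4. Ace, Ren1, Atp6ap2 and Agtr1a were then all lower, while Enpep was not called. That fit called 531 genes in all, 2.88% of those tested in either direction and 1.83% lower, so the count of calls rose over the whole table as well. With DESeq2's Wald test 3 of the genes were called, Ace, Ren1 and Atp6ap2, where 5.12% of tested genes were called in either direction and 2.77% were lower. Without a filter on low counts the same 3 genes were called, where 3.75% of all genes with reads were called and 1.88% were lower. Ace was the 1 gene called without CTRL 1 (0.287% of tested genes, 0.195% lower), without CTRL 2 (3.99%, 1.74% lower) and with the replicate number as a block (1.87%, 0.965% lower).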

How the data were processed

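RNA from sorted kidney ECs of 6 mice was analysed, and groups were taken from the sample titles. The authors used nf-core/rnaseq and deposited raw read counts for each gene, which are whole numbers and not normalized. The submitters' processing notes name Trim Galore 0.6.4, STAR 2.6.1d and featureCounts of Subread 1.6.4 with GRCm38.p6, and the study names GENCODE M25. The strand setting of the counting is not given in the sources used here. Beside the 23 other pathway genes counted, 1 further gene is not reported here. Values of the authors' own comparisons were not used here.
Counts were fitted in R 4.3.3 with edgeR 4.0.16 (filterByExpr, TMM factors, estimateDisp, robust glmQLFit and glmQLFTest) over the whole table, with Benjamini-Hochberg adjustment and a threshold of 0.05. Standard errors came from the fold change and the quasi-likelihood F, and 95% intervals from the degrees of freedom of the fit. DESeq2 1.42.0 (no outlier or independent filtering, on the same genes) and limma 3.58.1 (voom) were alternatives, beside other normalizations, filters, a replicate block and each library left out. An offset of 0.1 CPM was used for log2 profiles. The script was tested on simulated data. Positions and exonic lengths came from GENCODE M21, which holds 18411 of the 18438 tested genes and may differ from M25 at single genes. Promoter sequences are RefSeq's, on GRCm38.p6.
The genes, lists and tests were chosen with earlier results of these data known. The text names all 8 genes and, in the list of other pathway genes, any past the threshold and the 3 largest rises and falls. It also names up to 4 defining markers per list (more where a list's calls are named), the 5 profiles most like Ace and 3 neighbours on each side of Ace. As an exception, all 6 markers of the loop of Henle, distal tubule and collecting duct are named. Anpep, Rln1, Serpine2, Ptn, Dll4, Sox17 and the broadly expressed peptidases were named after their values were seen. Total counts of 39649171 to 47726850 per library make counting error small for Ace and large for genes near the floor of 3 counts. Correlations between same-numbered libraries were 0.0267, 0.0036 and 0.0097, so replicate numbers showed no sign of pairing. Deviations within groups of 3 cannot exclude a pairing by litter.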

Additional observations from a re-analysis of the deposited data

How the results depend on the processing

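Ace was lower and past the threshold under all 14 alternatives, with log2 fold changes between -1.18 and -0.83. Ren1, Atp6ap2 and Agtr1a had lower means in RbpjΔEC under all 14, and passed under 3, 3 and 1 of them. Enpep passed under none, and its log2 fold change turned to 0.12 when scaled to the pan-endothelial markers and lay between -0.21 and 0.034 when 1 library was left out. The number of the 8 genes called was 3 without a filter on low counts, 3 with DESeq2's Wald test and 1 to 4 when 1 library was left out (4 without RbpjΔEC 3). Of the other pathway genes, 2 were called without a filter (Klk1 and Mme), 1 with DESeq2, 1 with the replicate block (Klk1 in both) and 0 to 2 without 1 library (1 without CTRL 2, 2 without RbpjΔEC 3). Among all tested genes the number called was 209, 1436 without a filter, 944 with DESeq2, 344 with the replicate block and between 21 and 735 when 1 library was left out (53 without CTRL 1, 735 without CTRL 2, 24 without CTRL 3, and 21, 49 and 531 without RbpjΔEC 1, 2 and 3). In place of 106 higher and 103 lower genes, 159 and 81 were found with library size alone, and 663 and 56 when scaled to the pan-endothelial markers, where Klk1 passed and the median of all genes moved to 0.20. The causes of these shifts were not tested. The replicate block moved the log2 fold change of Ace to -1.04 and changed no other call among the 8 genes. Not every library correlated best with its own number, so the numbers were not used as pairs. Direction for genes with few counts, such as Agt, Agtr1b and Agtr2, is limited by depth.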
